A study of Mus musculus with 8 samples.

Results

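Regulatory T cells (Treg) and effector T cells (Teff) that both came from IRE1a-/- mice were compared across genes. Members are the genes with a deposited value of at least 10 in at least 2 of the 4 knockout (KO) libraries, which left 12785 of 18438 genes, and the effect is the difference of the group means of log2(value + 1), Treg minus Teff. The value is a normalised read number that is not whole and is not divided by gene length, so levels are compared between libraries for 1 gene and not between genes. Near the limit, Ptger3 and Nrk entered with a second highest value of 10.0011 and 10.0017, and Cd59b and Gm14444 stayed out at 9.9977 and 9.9509.

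Mice of the C57BL/6 strain had experimental autoimmune encephalomyelitis (EAE), a model of multiple sclerosis induced by immunisation with the myelin antigen MOG, and the spleen was taken on day 7. Treg were sorted as CD4+CD25hiYFP+ cells and Teff as CD4+CD25-YFP- cells, 2 libraries each from IRE1a-/- mice (KO Treg, KO Teff) and 2 each from mice labelled WT (WT Treg, WT Teff). Both compared groups thus carry the KO genotype, and EAE is common to all 8 libraries. The labels do not say which cells carry the deletion, what drives YFP, which part of the gene was removed, the age of the mice, or whether replicates came from separate animals. What the p-values measure is thus library-to-library spread alone, and part or all of it could be technical.

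Treg restrain other T cells. Their transcription factor FOXP3 maintains high CD25, the alpha chain of the interleukin-2 receptor, which binds the interleukin-2 made by activated conventional T cells. They also hold CTLA-4 and surface-anchored latent TGF-beta, while CD25- CD4+ cells are a mixture of naive cells and of helper cells that make interferon-gamma, interleukin-17 or interleukin-21. IRE1a, the product of Ern1, is a sensor in the endoplasmic reticulum (ER) membrane that cuts Xbp1 mRNA to give the spliced form of the transcription factor XBP1, and it can also cut other mRNAs, a process named regulated IRE1-dependent decay.

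Library sums lay between 17504097 and 18751258, and 16324 to 16642 genes were above 0 in a library. The 4 KO libraries separated by cell type on a first principal component that held 77.5% of their variance, and the second component (12.1%) separated the 2 KO Teff libraries from each other. Replicates correlated at r = 0.979 in KO Treg and 0.978 in KO Teff over the 12785 genes. Between replicates 649 genes in KO Treg and 805 in KO Teff differed by more than 2-fold.

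Genes of the targeted pathway and of the sort were read first. Ern1 (chromosome 11, 106394650 to 106487852, GRCm38, whole gene) was still read in the KO libraries, at 326 and 359 in KO Treg and 458 and 453 in KO Teff, against 377 and 399 in WT Treg and 559 and 616 in WT Teff. A gene total does not show whether a deleted part is missing. Il2ra (chromosome 2, 11642807 to 11693193) encodes CD25, by which the cells were gated, and stood at 8887 and 8699 in KO Treg against 537 and 436 in KO Teff. Foxp3 (chromosome X, 7573644 to 7595245) read 111 and 117 in KO Treg and 2.06 and 8.29 in KO Teff, and in WT Teff it was listed at 0 in both. Both sorts thus carry Cd4 transcripts, and Il2ra and Foxp3 lie higher in the libraries labelled Treg. Cd4 itself was lower in KO Treg (17791 and 17062 against 23514 and 22541, log2 difference -0.40, adjusted p = 0.00142), and the 5 helper T cell markers in the table summed to 44116 and 43937 in KO Treg and 48823 and 49261 in KO Teff.

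Markers of splenic macrophages moved with the Treg sort. Of 8 such markers in the table, 7 were called higher in KO Treg, and their summed level was 11476 and 10767 in KO Treg against 551 and 383 in KO Teff. The same sum was 19009.8 and 19555 in WT Treg and 1779 and 623 in WT Teff. Csf1r, the receptor for the macrophage growth factor CSF1, read 2222 and 2033 in KO Treg and 85.3 and 55.3 in KO Teff. Haemoglobin and other erythroid markers (3 of 4 tested called higher) summed to 989 and 922 in KO Treg against 174 and 134 in KO Teff, and B cell markers (2 of 8 higher) to 568 and 547 against 119 and 265. Some lineages stood on the Teff side. The 4 natural killer (NK) cell markers in the table (1 of 2 tested lower) summed to 44.3 and 42.0 in KO Treg against 385 and 317 in KO Teff. Most of that sum in KO Teff was Klrb1c, the one called. Ncr1 was near 0 in both sorts, at 0 in both KO Treg libraries and at 0 and 3.09 in KO Teff. Conventional dendritic cell markers (3 of 4 tested lower and Zbtb46 higher) summed to 207 and 186 against 626 and 358. Cd209a and Clec9a were listed at 0 in both KO Treg libraries, and Clec9a was low in KO Teff too, at 5.99 and 3.99. Plasmacytoid dendritic cell markers (3 of 6 lower) summed to 984 and 1097 against 1434 and 1158. Most of that sum was Bst2, not called, at 806 and 934 against 874 and 793. Of the 3 lower, Klk1 was at 0 in both KO Treg libraries and Siglech read 3.54 and 1.35 against 128 and 50.5. The third, Ccr9, is also in the naive list below. The plasma cell marker tested was lower and the stromal one higher, no neutrophil marker reached the value limit, and no CD8 T cell or platelet marker was called. The part of these cells in the differences described below was not tested, and in bulk libraries fewer cells of a type and less RNA per cell cannot be told apart.

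**Figure D1:**
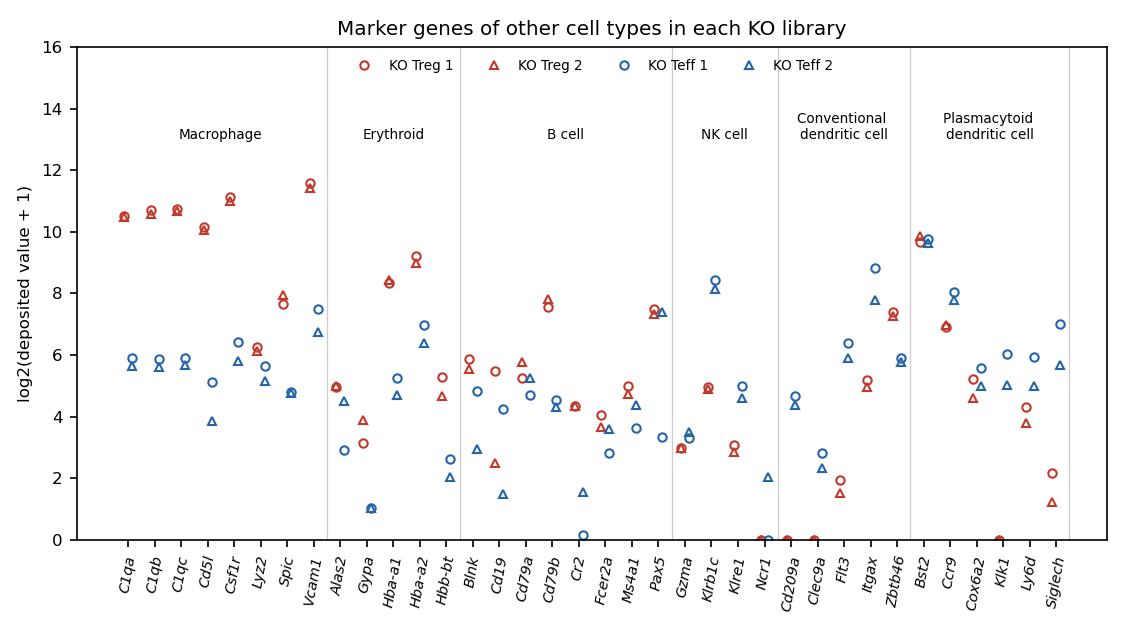
Level of marker genes of other cell types in the 4 KO libraries, as log2(value + 1), with 1 point per library and gene and cell types along the horizontal axis. Macrophage and erythroid markers lie higher in KO Treg, and NK and dendritic cell markers mostly lie lower.

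KO Treg and KO Teff differed widely. 3585 of 12785 genes were called (28.0%; limma, Benjamini-Hochberg adjusted p under 0.05 over all genes tested), 2081 higher in KO Treg (16.3%) and 1504 lower (11.8%). The list counts below stand beside these shares, and no list was tested against them. 1164 of the higher genes and 404 of the lower ones differed by more than 2-fold, and 135 and 45 by more than 16-fold. Over all genes the median difference was -0.0024 on the log2 scale. In every called gene both KO Treg libraries lay on the same side of both KO Teff libraries, but this held for many uncalled genes too, since 33.0% of all genes had both KO Treg libraries above and 32.7% both below. 379 genes reached the value limit only through KO Treg and 208 only through KO Teff, so these had to differ. 258 and 105 of them were called. Without KO Treg replicate 1 the total fell to 2370 and the lower genes to 964, and without KO Treg replicate 2 the lower genes were 967.

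**Figure D2:**
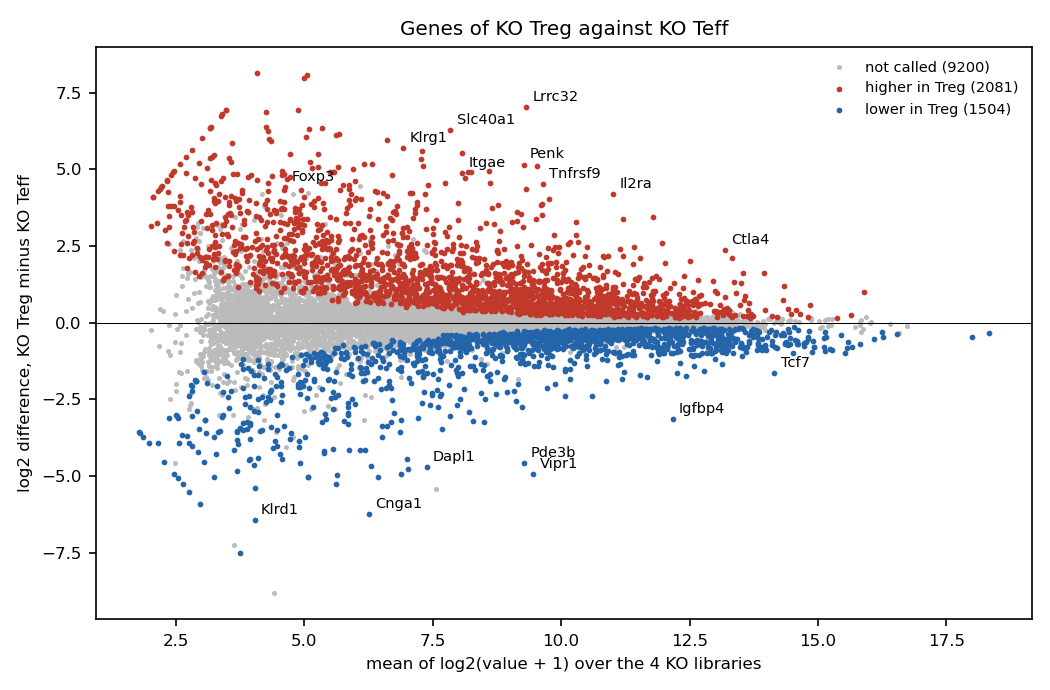
Difference between KO Treg and KO Teff (log2, vertical axis) against the mean level of each of 12785 genes over the 4 KO libraries (log2(value + 1), horizontal axis), with the 2081 genes called higher and 1504 called lower in KO Treg in colour. The large differences include Lrrc32 and Il2ra above and Vipr1 and Pde3b below.

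The genes of Treg identity were higher in KO Treg without exception among those tested. 25 of 25 were called higher, with a median log2 difference of 2.50 against -0.0024 over all genes. These include Il2ra, on whose product the cells were gated, and Foxp3, which reached the value limit only through KO Treg. Without both, 23 of 23 were higher, with a median of 2.50. Tnfrsf9 (chromosome 4, 150914562 to 150946102), which encodes the costimulatory receptor 4-1BB, read 3847 and 3851 in KO Treg and 159.9 and 173 in KO Teff (log2 difference 4.53, SE 0.07, adjusted p = 5.09e-07). Tnfrsf4, which encodes OX40, read 7576 and 7711 against 801 and 678 (log2 difference 3.37, SE 0.08, adjusted p = 2.20e-06). Ctla4, the inhibitory receptor that takes CD80 and CD86 from antigen-presenting cells, read 20930.2 and 21788 against 4361 and 3896 (log2 difference 2.37, adjusted p = 2.76e-06). The 2 libraries of each group lay close together in all 3 of these receptors, and the groups were far apart. Ikzf4, which encodes the transcription factor Eos, read 2895 and 3150.0 against 196 and 212, and Izumo1r, the folate receptor FR4, 11498 and 11844 against 3024 and 2819.6. Itgae, the alpha chain CD103 that binds E-cadherin on epithelia, read 1471 and 1451 against 48.5 and 48.4. In these too, no KO Teff library came near a KO Treg library. The smallest difference in the list was 1.21 and the largest, that of Lrrc32, 7.03. CD25 set the sort, so the difference in Il2ra is what the gate selected for and is no finding.

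Short stretches upstream of 4 of these genes are shown to let the sequence stand beside the values. In each a motif of a factor named for Treg (forkhead, STAT, NF-kB) matched within the 250 bases before the start site. Not all such matches are shown, since Fgl2 of the same list also had a STAT match, as did Tnfrsf9 at another place. The stretches shown are from RefSeq, build GRCm38.p6, on the gene's strand, with the match in capitals. The Tnfrsf9, Foxp3 and Tnfrsf18 stretches lie before the RefSeq start site but inside the longer GENCODE gene. Tnfrsf9 lies at chr4:150927927-150927995 (plus strand, NF-kB motif GGGANTTCC). Foxp3 lies at chrX:7580314-7580382 (plus strand, STAT motif TTCNNNGAA), Tnfrsf18 at chr4:156026193-156026261 (plus strand, STAT motif) and Swap70 at chr7:110221566-110221632 (plus strand, forkhead motif TGTTTAC).
Tnfrsf9: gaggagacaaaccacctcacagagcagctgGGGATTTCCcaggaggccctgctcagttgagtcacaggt
Foxp3: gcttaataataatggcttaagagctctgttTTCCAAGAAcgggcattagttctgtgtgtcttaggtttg
Tnfrsf18: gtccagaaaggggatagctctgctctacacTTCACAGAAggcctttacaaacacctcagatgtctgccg
Swap70: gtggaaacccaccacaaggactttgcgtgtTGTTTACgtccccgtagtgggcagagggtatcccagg
Beside these sequences stand the values. Tnfrsf18, which encodes GITR, read 3988 and 4199 in KO Treg and 924 and 886 in KO Teff, and Swap70, a guanine nucleotide exchange factor for Rac chosen here after its values were seen, 1283 and 1223 against 133 and 137. The shares of promoter windows that hold each motif are given for comparison, with no test. On either strand of the 300-base RefSeq windows, the forkhead motif was found in 2.97% of windows of genes higher in KO Treg, 2.65% of lower genes, 2.58% of tested genes that were not called and 3.65% of all 32851 windows. In the same order the STAT motif was in 6.68%, 7.75%, 7.02% and 8.30%, and the NF-kB motif in 2.09%, 2.11%, 2.36% and 1.68%. For the AP-1 motif TGANTCA, a match of which also lies in lower case near the end of the Tnfrsf9 stretch, the shares were 5.89%, 4.96%, 5.04% and 7.81%. A motif match is a description of these letters only. 9877 of the 12785 genes had a promoter entry by symbol.

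**Figure D3:**
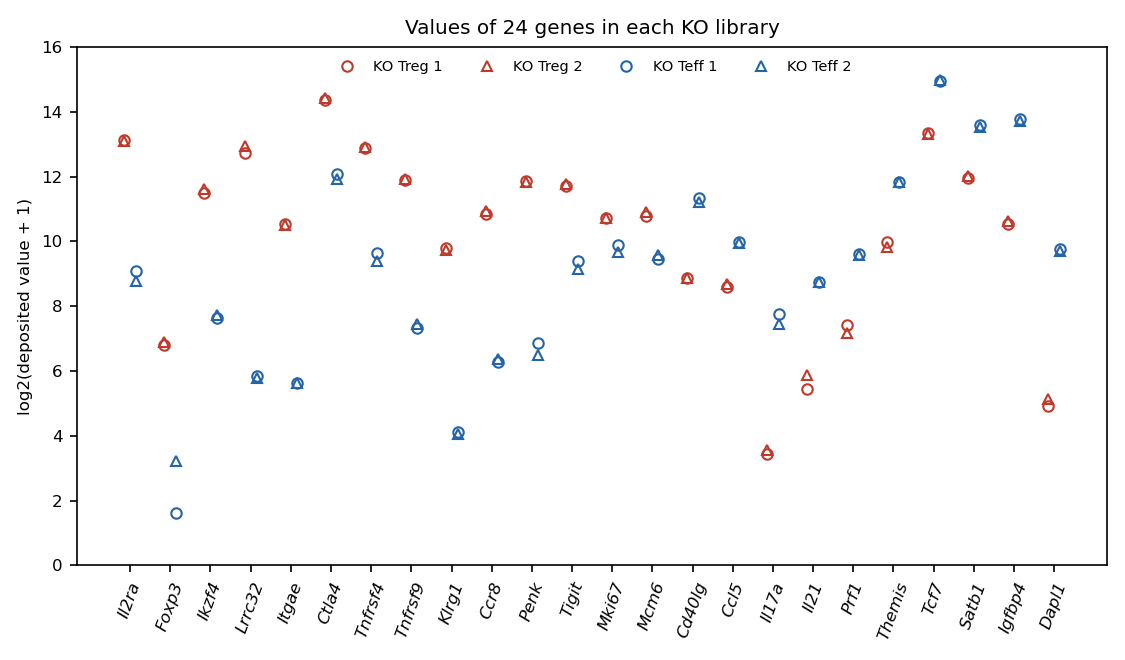
Values of 24 named genes in each of the 4 KO libraries on a log2(value + 1) axis, 1 point per library, with KO Treg in red, KO Teff in blue and replicates 1 and 2 as circles and triangles. For each gene shown both KO Treg points lie on the same side of both KO Teff points, above them from Il2ra to Mcm6 and below them from Cd40lg to Dapl1.

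The TGF-beta list held both directions, and 7 of 13 genes were higher and 4 lower, with a median of 0.51. The lower ones were 2 when either KO Treg library, either WT Treg library or KO Teff replicate 1 was left out. Lrrc32 (chromosome 7, 98489283 to 98502181) encodes GARP, which holds latent TGF-beta on the Treg surface, and read 6827 and 7847 in KO Treg against 56.9 and 53.5 in KO Teff (log2 difference 7.03, SE 0.45, adjusted p = 5.00e-05). Itgb8 and Itgav, the chains of the integrin that releases active TGF-beta, read 1317 and 1357 against 218 and 252 and 1802 and 2137 against 608 and 578. Tgfbr3, the co-receptor betaglycan, went the other way, at 227 and 236 against 1675 and 1455 (log2 difference -2.75, SE 0.12, adjusted p = 1.21e-05).

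Genes of activated, tissue-type Treg were also higher: 20 of 23, none lower, with a median of 2.04. Klrg1 (chromosome 6, 122270596 to 122282882), an inhibitory lectin-like receptor of late effector cells, read 894 and 853 in KO Treg and 16.5 and 15.4 in KO Teff (log2 difference 5.69, SE 0.18, adjusted p = 4.88e-06). Penk, which encodes the opioid precursor proenkephalin, read 3693 and 3683 against 117 and 90.0, and Ccr8, a chemokine receptor, 1831 and 1949 against 77.4 and 82.4. Il1rl1, the interleukin-33 receptor ST2, read 1606 and 1329 against 184 and 65.0. In all 4 both KO Teff libraries lay well below both KO Treg libraries, with the KO Teff libraries of Il1rl1 apart from each other. Gzmb, which encodes granzyme B, read 488 and 525 against 104 and 86.5 (log2 difference 2.40, adjusted p = 3.74e-05), and Gata3, a transcription factor shared with Th2 cells, 6469 and 6056 against 2399 and 2003. Of the Th2 list 4 of 6 genes were higher and 1 lower, and the lower call was lost without KO Treg replicate 1 or KO Teff replicate 1. Among the higher was Pparg, a nuclear receptor also made by macrophages, at 374 and 187 against 2.59 and 3.44. Pparg reached the value limit only through KO Treg and so had to differ. Without it 3 of 5 were higher and 1 lower, with a median of 0.47.

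Genes of naive and resting cells were on the Teff side. 14 of 19 were lower in KO Treg and none was higher, with a median of -0.76. Tcf7 and Satb1, a transcription factor and a chromatin organiser of naive T cells, read 10403 and 10182 against 31954 and 32528 and 3981 and 4178 against 12266 and 11821. Igfbp4, which binds insulin-like growth factors, read 1487 and 1599 against 14002 and 13470.5 (log2 difference -3.15, SE 0.10, adjusted p = 4.81e-06). Dapl1 (chromosome 2, 59484653 to 59505020) read 29.1 and 34.5 against 866 and 841 (log2 difference -4.71, SE 0.26, adjusted p = 2.99e-05). No library of 1 group reached the other in these 4 genes.

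Helper cytokine programmes were mostly lower in KO Treg. In the Th17 list 11 of 14 genes were lower and 3 higher, with a median of -2.41, and in the Th1 list 13 of 20 were lower and 3 higher, with a median of -0.66. Il17f and Il22 of the first list and Ccl3 and Ccl4 of the second reached the value limit only through KO Teff. Without them 9 of 12 Th17 genes were lower (median -1.71) and 11 of 18 Th1 genes (median -0.51). Il17a read 9.84 and 10.8 in KO Treg and 218 and 174 in KO Teff (log2 difference -4.11, SE 0.27, adjusted p = 5.67e-05). Il21, which drives germinal centre B cells, read 42.1 and 58.1 against 427 and 433. Il22, whose reads may be shared with a near-identical gene copy, read 7.87 and 2.95 against 215 and 171. All 3 cytokines were far lower in both KO Treg libraries. The Th17 genes that were higher in KO Treg, Ahr, Maf and Rora, encode transcription factors and not cytokines. Ahr, the aryl hydrocarbon receptor, read 1258 and 1273 against 294 and 261 and Maf 6686 and 7233 against 3788 and 3503. In the Th1 list Cxcr6, a chemokine receptor, read 97.3 and 122 against 605 and 625 and Eomes, a T-box transcription factor, 19.8 and 18.8 against 181 and 147. Ccl5, a chemokine of effector cells, read 383 and 409.6 against 1019 and 986, while Hopx, a homeodomain-only factor, was higher in KO Treg at 1401 and 1516 against 447 and 498. The follicular helper list held both directions, with 8 higher and 6 lower of 17 (5 higher without KO Treg replicate 1): Tox and Pdcd1, which encodes PD-1, were higher at 3064 and 3119 against 1035 and 1049 and 2192 and 2085 against 767 and 784.

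Killer-cell genes were divided. 7 of 12 in the cytotoxic list were lower in KO Treg, 3 were higher, and the median was -0.83. Klrd1, Klrc1 and Gzmk reached the value limit only through KO Teff and so had to differ. Without them 4 of 9 were lower and 3 higher, with a median of -0.57. Klrd1 (CD94, chromosome 6, 129591782 to 129598775) read 0 and 2.12 in KO Treg and 138 and 167 in KO Teff. Gzmk, granzyme K, read 1.06 and 2.11 against 117 and 94.8, and Prf1, perforin, 170.1 and 144 against 775 and 757. Against these, granzyme B was higher in KO Treg, as was Cst7, the cathepsin inhibitor cystatin F, at 2085 and 2239 against 399 and 490.2. The NK cell marker sums given above moved in the same direction as the lower genes, and their part was not tested.

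Interleukin-2 signalling and receptor-induced genes showed both directions. Of 14 interleukin-2 and STAT5 genes 7 were higher and 2 lower. Il2rb, the beta chain of the receptor, read 27707 and 28050.2 against 9619 and 8512, and Cish, a feedback inhibitor induced through STAT5, 6093 and 6215 against 1501 and 1344. Among receptor-induced genes 14 of 21 were higher and 3 lower, with a median of 0.65. Cd40lg, the helper signal to B cells, was 470.2 and 466 in KO Treg against 2573 and 2401 in KO Teff (log2 difference -2.41, SE 0.08, adjusted p = 5.52e-06), the opposite of Rel, an NF-kB subunit, at 4971 and 4860.3 against 1879 and 1604. In the NF-kB list 12 of 15 genes were higher and none lower (1 lower without KO Teff replicate 1), with a median of 0.78. Nfkbia, the inhibitor that NF-kB itself induces, read 20641 and 21157 against 7478 and 6073. Of the T cell receptor signalling list 11 of 25 were lower and 4 higher, and without KO Treg replicate 1 or KO Teff replicate 2 only 1 was higher. Themis, an adaptor best known from thymic selection, read 1019.5 and 900.5 against 3626 and 3613, and Cd247, the zeta chain of the receptor complex, 6262 and 6385 against 9932 and 10038. Il2, in both the interleukin-2 and the receptor-induced list, reached the value limit only through KO Teff, and without it and Il2ra 6 of 12 in the former were higher and 1 lower.

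Surface receptors followed no single direction. Of 14 TNF receptor superfamily genes 8 were higher and 3 lower (1 lower without KO Treg replicate 1, KO Treg replicate 2 or KO Teff replicate 1), and Tnfrsf8, which encodes CD30, read 545 and 607 against 31.9 and 27.7. Of 14 costimulatory and inhibitory receptors 7 were higher and 1 lower (0 lower without KO Treg replicate 2 or KO Teff replicate 2, and 2 without either WT Teff library), with Tigit, which competes with CD226 for the same ligands, at 3340.4 and 3496 against 668 and 571. Chemokine receptors and homing genes split into 11 higher and 11 lower of 29, and into fewer higher ones, 7, without KO Treg replicate 1, KO Treg replicate 2 or KO Teff replicate 2. Enzymes and receptors of extracellular nucleotides were 7 higher and 1 lower of 11, and the lower call was lost when any KO library was left out. In that list Nt5e (CD73), which makes adenosine, read 5834 and 5678 against 2356 and 1895 and Adora2a, an adenosine receptor, 1556 and 1585 against 631 and 577. Lineage transcription factors were 8 higher and 7 lower of 29, with a median of 0.03. Foxp3 among them reached the value limit only through KO Treg, and without it 7 of 28 were higher and 7 lower.

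Across all genes, the 15 higher ones of largest change were a mixed set. Cxcl2, Muc16, Clec4n, C6, Dnah7a, Pparg, Tdpoz8, Slco2b1 and Mtpap among them reached the value limit only through KO Treg. Cxcl2, a chemokine that draws neutrophils, read 513 and 574 in KO Treg and 0 and 3.12 in KO Teff. Muc16, a membrane mucin, read 315 and 333 against 1.64 and 1.63. Several genes known from splenic macrophages were among the 15: Slc40a1, the iron exporter ferroportin, read 2153 and 1891 against 12.3 and 50.2, Cd5l, a secreted macrophage protein, 1130.2 and 1067 against 34.0 and 13.4, and Clec4n, the lectin Dectin-2, 445 and 302 against 4.31 and 2.88. The macrophage marker sums given above moved with them and their part was not tested. C6 (complement), Slco2b1 and Slc7a10 (transporters), Dnah7a (a dynein heavy chain) and Tdpoz8 were also in the set, with Lrrc32, Klrg1, Pparg and Mtpap. Mtpap was listed at 0 in both KO Teff libraries and read 197 and 74.7 in KO Treg, but was 0 in both WT Treg libraries, and lost its call in 6 of 19 other settings. Dnah7a and Tdpoz8 belong to families with near-identical copies, so their reads are uncertain.

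The 15 lower genes of largest change were also a mixed set. Adamts17, Adgrg5, Cnga1, Eif1a, Gzmk, Il22 and Klrd1 among them reached the value limit only through KO Teff. Vipr1 (chromosome 9, 121642716 to 121672954), a receptor for vasoactive intestinal peptide that raises cyclic AMP, read 119.7 and 134 in KO Treg and 4103 and 3684 in KO Teff (log2 difference -4.93, SE 0.18, adjusted p = 6.73e-06). Pde3b, a phosphodiesterase that degrades cyclic nucleotides, read 126 and 126 against 2983 and 3084 (log2 difference -4.58, SE 0.20, adjusted p = 1.18e-05), and Cnga1, a channel opened by cyclic nucleotides, 7.22 and 8.30 against 951 and 468. Both groups were tight in Pde3b, while the KO Teff libraries of Cnga1 lay apart from each other. Atp8b4 and Atp8a2, of the family of phospholipid flippases, read 17.3 and 24.3 against 626 and 681 and 8.91 and 23.7 against 267 and 600.0. Pdlim4, an actin-linked adaptor, read 10.6 and 18.7 against 525 and 469, and Adgrg5, an adhesion receptor, 8.13 and 5.91 against 361 and 258. Adamts17, a secreted metalloprotease, read 3.81 and 6.09 in KO Treg and 186 and 194 in KO Teff, and 2.28 and 5.32 in WT Treg and 2.19 and 3.13 in WT Teff, so that only KO Teff was high. Ggt5, Ly6c2, Il22, Gzmk, Klrd1, Dapl1 and Eif1a made up the rest, and Ly6c2 like Il22 has a near-identical copy. Eif1a was listed at 0 in both KO Treg libraries and in 1 WT Treg library, has a near-identical copy on the X chromosome and lost its call in 4 of 19 other settings.

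The lists of the unfolded protein response had medians near 0 with a few larger differences. Of 7 sensor genes 1, Xbp1, was called higher and 1, Ern1, lower. Ern1 was lower in KO Treg by the values above (log2 difference -0.41, SE 0.10, adjusted p = 0.0235), but the call was lost in 6 of 19 other settings, each of the 4 KO libraries left out among them (largest adjusted p = 0.129). Xbp1 read 2000.0 and 1837 in KO Treg and 1657 and 1381 in KO Teff (log2 difference 0.34, SE 0.10, adjusted p = 0.0384), and its call was lost in 9 of 19 (largest adjusted p = 0.182). Spliced and unspliced Xbp1 are not separated in a gene total. Of 46 XBP1 target and ER folding genes 7 were higher and 4 lower, with a median of -0.01, and the higher genes were 2 without KO Treg replicate 1, 3 without KO Teff replicate 2 and 4 without KO Teff replicate 1. Pdia3, a disulfide isomerase, read 9261 and 9244 against 7403 and 6807, and Dnajc3, a co-chaperone that restrains PERK, 2065 and 1923 against 2884 and 2964. Of 24 PERK-ATF4 genes 6 were higher and 2 lower, with a median of 0.01. The higher ones were 3 without KO Treg replicate 1, KO Treg replicate 2 or KO Teff replicate 2, and the lower ones 1 without KO Treg replicate 1 or either WT Treg library. Asns, asparagine synthetase and a target of ATF4, read 102 and 147 in KO Treg and 20.9 and 36.6 in KO Teff (log2 difference 2.10, SE 0.35, adjusted p = 0.00408) and kept its call in all 19 other settings. Of the 4 reported decay targets tested only Ergic3 was called, a call lost without KO Treg replicate 1, KO Treg replicate 2 or KO Teff replicate 2, and Bloc1s1, the most often reported, read 524 and 529 in KO Treg and 577 and 538 in KO Teff (log2 difference -0.08, adjusted p = 0.566). The share of called genes in the ER folding list lay below the 28.0% of all genes, and no test of that was made. The counts of the PERK-ATF4 list stand beside 16.3% higher and 11.8% lower over all genes.

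Proliferation genes leaned to KO Treg, with 21 of 39 higher, none lower and a median of 0.67. Leaving out single libraries gave 14 to 22 higher. Mki67, the marker Ki-67, read 1706 and 1677 against 939 and 809, and Mcm6, of the replication helicase, 1748 and 1920.1 against 701 and 772. Glycolysis had 8 higher and 3 lower of 18 (5 higher without KO Treg replicate 2), with Hif1a at 8799 and 8246 against 4394 and 4195 and Pdk1, which holds pyruvate back from mitochondria, at 1209.5 and 1122 against 2576 and 2778. Oxidative phosphorylation had none higher and 10 of 33 lower, with a median of -0.22, and leaving out a KO library gave 1 and 2 lower (KO Treg replicates 1 and 2) and 3 and 6 lower (KO Teff replicates 1 and 2). Cholesterol synthesis had 1 higher and 1 lower of 23, and at least 1 of these 2 calls was lost when any KO library was left out. Interferon response genes were 11 higher and 5 lower of 42 (3 lower without KO Teff replicate 2): Gbp3, a guanylate-binding GTPase, was higher (1843 and 1688 against 396 and 403) and Oas2, a sensor of double-stranded RNA, lower (199 and 211 against 688 and 687). In the cell death list 6 of 17 were higher and 3 lower (1 lower without KO Teff replicate 1). Bcl2l1, which encodes the survival protein BCL-XL, read 1349 and 1614 against 444 and 464. Over all genes 16.3% were higher and 11.8% lower. The lower count of the interferon list lay near that share, and both cholesterol counts lay below.

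**Figure D4:**
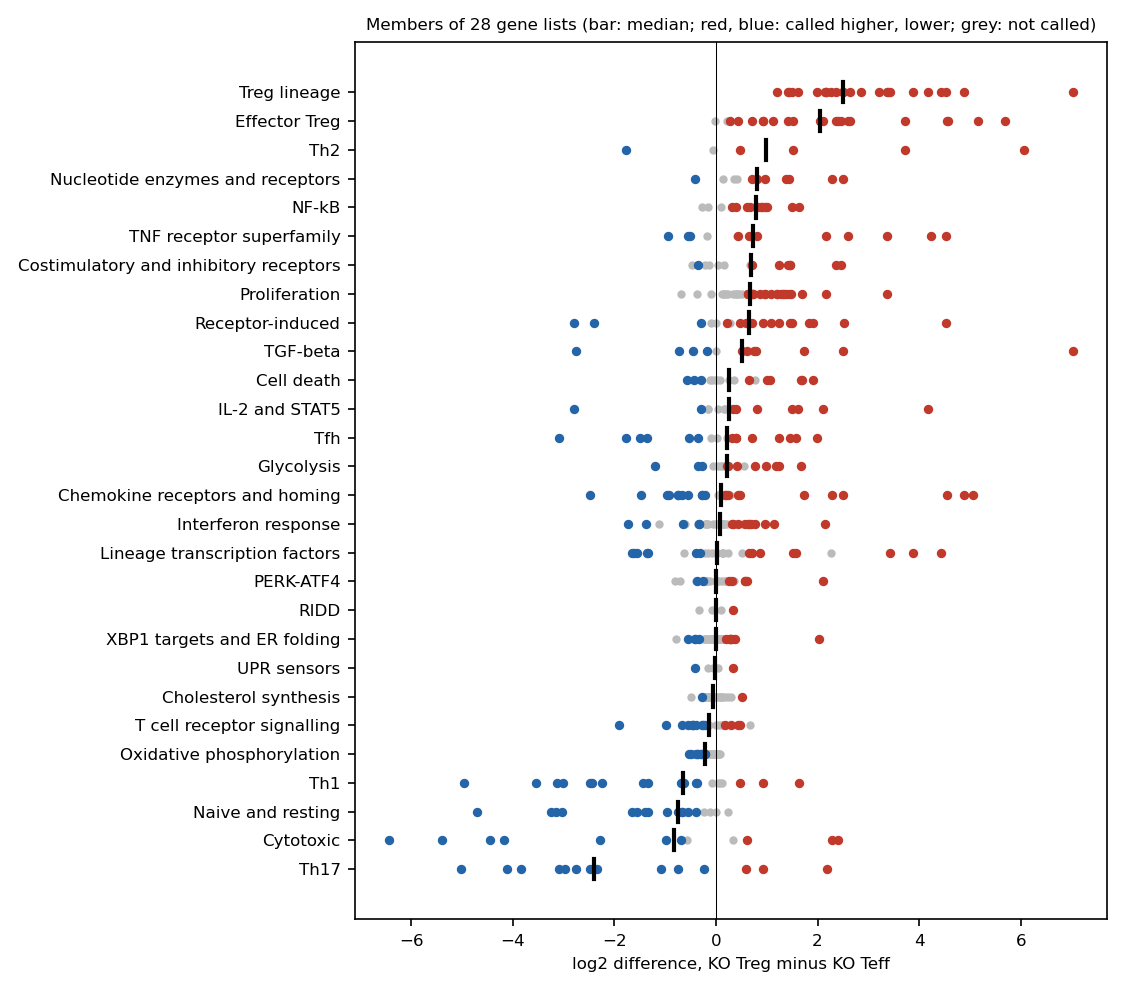
Log2 difference between KO Treg and KO Teff of every tested member of the 28 gene lists, 1 point per gene, with the list median as a bar and called genes in colour. Treg lineage and effector Treg genes lie above 0, naive and Th17 genes mostly below, and the ER lists around 0.

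The same comparison in WT, which shares no library with the KO one, gave 3261 called genes (25.5%), and 2103 without WT Treg replicate 2. 2427 genes were called with the same sign in both, which is 67.7% of the KO calls and 74.4% of the WT calls, and 13 with opposite sign. Both comparisons come from 1 fit, in which all 8 libraries share the spread of a gene, on genes chosen by the KO libraries. Their calls are thus not independent. Across genes, which are not independent replicates, the KO and WT differences correlated at r = 0.80 over 12785 genes. The Treg lineage list had 24 of 25 higher and a median of 2.06 in WT. A gene called in one genotype and not in the other is not thereby shown to differ between them.

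The difference between the KO and WT comparisons was itself tested, and 3 genes were called (0.0235%; limma interaction), with 1335 genes (10.4%) at an unadjusted p under 0.05. Art2a (chromosome 7, 101552453 to 101560865), an ADP-ribosyltransferase of the T cell surface with a near-identical neighbour, Art2b, read 290.2 and 267 in KO Treg, 87.7 and 94.7 in KO Teff, 386 and 400.2 in WT Treg and 648 and 671 in WT Teff. It was thus higher in Treg in KO (log2 difference 1.60) and lower in Treg in WT (-0.74), a difference of 2.34 (SE 0.16, adjusted p = 0.00863). Zswim9 (chromosome 7, 13258967 to 13278721), a zinc finger gene, read 269 and 269 in KO Treg, 210.1 and 210.1 in KO Teff, 20.0 and 22.2 in WT Treg and 206 and 277 in WT Teff, a difference of 3.79 (SE 0.26, adjusted p = 0.00863). For Zswim9 the WT Treg libraries are the low ones. Trav7d-6 (chromosome 14, 53020416 to 53020991), a T cell receptor segment outside the naming rule and named after its values were seen, read 17.7 and 25.5 in KO Treg and 26.8 and 28.8 in KO Teff. It was listed at 0 in both WT Treg libraries and read 80.4 and 83.7 in WT Teff (adjusted p = 0.0214). None of the 3 calls held in every setting: they were lost in 8, 6 and 9 of 18 other settings, with adjusted p up to 0.123, 0.123 and 0.157. Each setting that left out 1 library kept at most 1 of the 3, and Trav7d-6 was lost in all 8. Without KO Teff replicate 2 or without WT Treg replicate 1 no gene was called, and the 1 gene called without KO Treg replicate 1, or without replicate 2, was none of these 3.

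Several named genes had unequal sizes in the KO and WT comparisons without passing the test of the difference. Gzmb had a log2 difference of 2.40 in KO and 0.78 in WT (adjusted p of the difference 0.0692). For Penk the values were 5.16 and 3.81 (0.0692), for Tox 1.57 and 0.91 (0.0692), for Tnfrsf9 4.53 and 3.71 (0.0692), and for Adamts17 -5.03 and 0.33 (0.0692). In the follicular helper list the KO difference was above the WT one in 17 of 17 genes, with 13 at an unadjusted p under 0.05 and 0 called. The medians of that list were 0.23 in KO and -0.47 in WT. The same counts were 22 of 23 and 16 in the effector Treg list and 25 of 29 and 19 among chemokine receptors and homing genes. More lists leaned the same way, among them Treg lineage at 22 of 25 and 14. Costimulatory and inhibitory receptors had 13 of 14 and 8, and proliferation genes 32 of 39 and 13. No gene was called in any of these lists. Over all genes 10.4% were at an unadjusted p under 0.05. Genes such as Pdcd1 and Izumo1r count in more than 1 of these lists, and no list was tested. Other lists went the other way, with 5 of 33 above in oxidative phosphorylation, 2 at an unadjusted p under 0.05, and 0 of 4 among the decay targets. Over all genes the KO difference was above the WT one in 6767 of 12785. Glycolysis, at 8 of 18, lay near that share, with 0 at an unadjusted p under 0.05. Bcl6 and Cxcr5, the transcription factor and the homing receptor of follicular helper cells, both chosen after their values were seen, read 888 and 882 and 505 and 684 in KO Treg. In KO Teff they read 692 and 647 and 523 and 483, and in WT Teff 1012 and 1068 and 935 and 943. For both genes the WT Teff libraries thus lay above the KO Teff ones. WT Treg values of both genes are not given here, so their WT comparison of Treg and Teff cannot be read from these values.

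**Figure D5:**
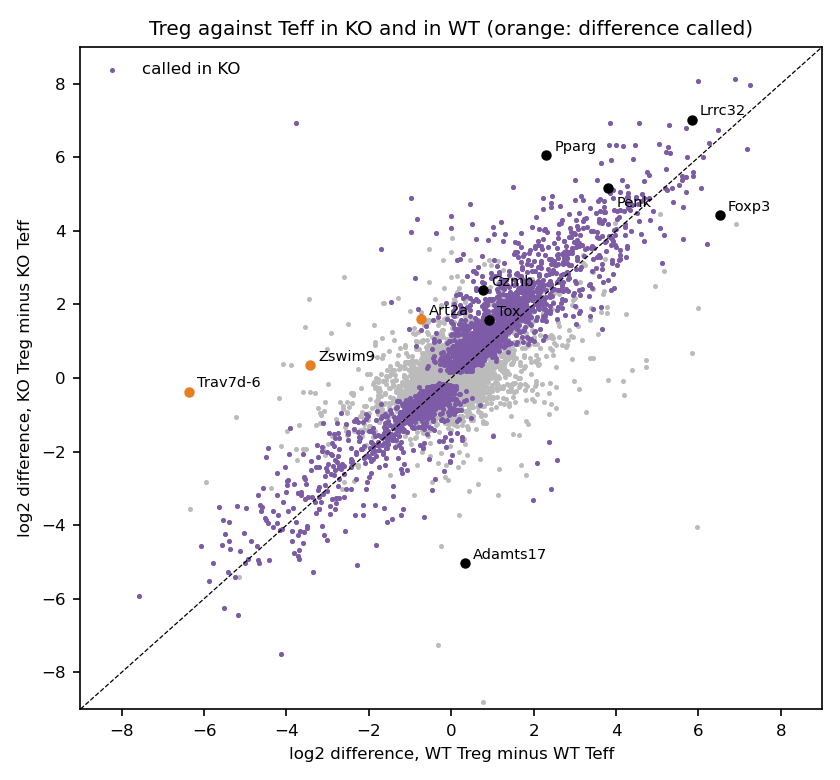
Treg minus Teff difference in KO (vertical axis, log2) against the same in WT (horizontal axis, log2), 1 point per gene for 12785 genes, with the line of equal differences. The cloud of genes follows the line, and the 3 genes called for the difference, Art2a, Zswim9 and Trav7d-6, lie above it.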

How the data were processed

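Messenger RNA was read in 8 libraries, 2 each of KO Treg, KO Teff, WT Treg and WT Teff. Per the labels' protocols, polyadenylated RNA was selected and sequenced as single-end reads on a DNBSEQ instrument, and no step that marks the strand is named, so reads of a gene and of an overlapping or antisense partner are not separable. DESeq2 1.28.1, R 4.0.3, Salmon 0.14.1, Trim Galore 0.4.4 and build mm10 are named, per the submitters' processing notes, without their roles. The values the authors deposited are a signal, a normalised read number. 21.3% to 24.5% of them were whole multiples of the commonest step (tolerance 0.02), so whole reads were not recovered and no count test was run. Depth is therefore known only through the library sums.

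The test was limma 3.58.1, with trend and robust shrinkage, in R 4.3.3 on log2(value + 1), with 1 coefficient per group over all 8 libraries (4 residual degrees of freedom), on the 12785 genes that passed the limit in the KO libraries, with Benjamini-Hochberg adjustment over all of them and calls at 0.05. This scale understates the change of low genes. The design named an edgeR test for the case of counts, which was not used. Figures were drawn with matplotlib 3.10.9 and tables written with pandas 2.3.3 and numpy 2.4.6 under Python 3.11.15. Coordinates are those of GENCODE M21 (GRCm38) and span whole genes. The fit was checked on simulated data. Members and lists were chosen with earlier results of these data known. Named are Il2ra, Foxp3, Cd4, Ern1 and Xbp1, up to 4 genes per list with the smallest p, and, in each direction, the 15 most changed genes that are called, do not overlap and reach a mean of 100, without predicted genes, receptor segments or pseudogenes. A few named genes are not reported here. Alternatives were other pseudocounts, filters, scalings and shrinkage, the KO libraries alone, a replicate block, and leaving out each library.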

Additional observations from a re-analysis of the deposited data

Results flagged for a closer look

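Treg and Teff differed to another extent in KO than in WT for 3 genes, by the limma test of the difference between the 2 comparisons. The difference, KO minus WT, was 2.34 on the log2 scale for Art2a, 3.79 for Zswim9 and 6.00 for Trav7d-6. For Art2a the KO Teff libraries were the low ones (87.7 and 94.7), for Zswim9 the WT Treg libraries (20.0 and 22.2), and Trav7d-6 was listed at 0 in both WT Treg libraries, so its fitted difference depends on the pseudocount and is no bound. No group has enough libraries for a check of single samples.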

How the results depend on the processing

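Over 19 other settings, the number of genes called in KO stayed within 1.5 times 3585 except without KO Treg replicate 1. Leaving out single libraries gave 2370 to 3569 genes called in KO, 1406 to 2085 higher, 964 to 1484 lower and 2103 to 3239 called in WT. The lone library of a group is then assumed to vary like the other groups. The 3 genes called for the difference between KO and WT became 5 with library totals made equal, 5 with upper-quartile scaling, 0 with the replicate block and 0 to 3 when single libraries were left out, of which at most 1 was among the original 3. The replicate numbers share only a number: deviations of same-numbered Treg and Teff libraries correlated at 0.0515 in KO and 0.0562 in WT over 9378 genes. With the replicate block 3038 genes were called in KO, 1834 of them higher. Library totals, upper-quartile scaling and quantile normalisation moved the median difference to 0.07, -0.03 and -0.08, and the share of calls that were higher from 58.0% to 67.9%, 54.9% and 49.2%. Of 118 named genes called in KO, 108 kept the call in all 19 settings, and 10 lost it in at least 1 (among them Cox6a1, Eif1a, Ergic3, Ern1, Mtpap, Ndufa2, Ndufb5, Stard4 and Xbp1). Tapbp, not called, had a log2 difference of 0.10 that changed sign to -0.0355 without KO Teff replicate 2, and it ranged up to 0.227 when other single libraries were left out. Precision rests on 2 libraries per group, and the cause of these changes was not tested.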

Other observations

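Families were read by symbol and chosen after results of these data were known. Some hold genes of the lists too, so those counts are not separate observations. Gbp3 and Gbp7 are also in the interferon list, Klrd1 and Klrc1 in the cytotoxic list, and Itgae and Itgb8 among the homing genes. Of 81 genes of cytosolic ribosomal proteins 73 were lower in KO Treg and 0 higher, with a median log2 difference of -0.76, against 68 lower and a median of -0.47 in WT. Rps20, a protein of the small subunit, read 4590.4 and 4519 in KO Treg and 9703 and 9266 in KO Teff, and 4469 and 4454 in WT Treg and 7071 and 7398 in WT Teff. These genes took 5.37% and 5.40% of the KO Treg libraries and 8.45% and 8.38% of the KO Teff libraries. Under the scaling alternatives 73, 74 and 72 were lower (library totals, upper quartile, quantile). Reads of ribosomal protein genes can be shared with their many processed pseudogenes.

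Of 11 killer lectin-like receptor genes 8 were lower in KO Treg and 1, Klrg1, higher. The 8 include Klrd1 and Klrc1, which reached the value limit only through KO Teff and so had to differ. They also include Klrb1c, which made up most of the NK cell marker sum. With a limit of 50 in 2 KO libraries 5 of the family were lower and 1 higher. Of 10 guanylate-binding protein genes 7 were higher. Of 223 solute carriers 55 were higher and 18 lower, and of 25 integrin genes 10 and 5, with 6 higher without KO Treg replicate 1 or KO Teff replicate 2. All these counts but that at the limit of 50 read against 16.3% higher and 11.8% lower over all genes. Runx3, a transcription factor that favours CD8 and Th1 genes and is named after its values were seen, read 1399 and 1327 in KO Treg and 3736 and 4641 in KO Teff, and 2839.8 and 2650.4 in WT Treg and 2402 and 3879 in WT Teff (adjusted p of the difference between genotypes 0.153).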
